A study of Mus musculus with 4 samples.

Results

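The genes described here are 49 targets and partners of ATF4, the transcription factor of the amino acid response, including 12 of the cytosolic aminoacyl-tRNA synthetases. They were compared between STMN1-/- and STMN1+/+ mouse embryo fibroblasts (MEFs). The 49 genes were chosen from the known amino acid response with the log2 ratios of this same contrast already in view, so their values are given as a description and carry no test. All 49 had at least 1 probe on the array and all 49 were measured above background on at least 1 array, out of 14997 genes tested.

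The MEFs were C57BL/6 cells grown from single embryos of STMN1+/- matings. They were cultured in medium with 10% fetal bovine serum, glutamine and pyruvate, and were discarded after passage 7. STMN1+/+ cells carry both intact copies of the gene for stathmin, a protein that binds tubulin and destabilises microtubules, and in STMN1-/- cells a neomycin cassette interrupts both copies in every cell. Each of 4 Agilent 2-color arrays carried RNA of both genotypes, with the STMN1-/- RNA in Cy3 on arrays 1 and 2 and in Cy5 on arrays 3 and 4. Whether the arrays came from separate embryos, cultures or extracts is not given in the labels. The methods describe dye-swapped duplicates without saying which arrays shared an extract, so the spread between the 4 arrays may be technical. The errors below are limma's moderated standard errors, which draw each probe's variance towards that of all probes, so they can be larger or smaller than the spread of the printed values alone.

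ATF4 is made when the translation factor eIF2 is phosphorylated, which slows most protein synthesis but favours the Atf4 message. The kinase GCN2 responds to uncharged tRNA when amino acids run short, and the kinase PERK responds to misfolded protein in the endoplasmic reticulum. ATF4 then pairs with other bZIP factors of the C/EBP and ATF families on composite C/EBP-ATF elements, and turns on enzymes that make amino acids, carriers that import them, synthetases that load them onto tRNA, and proteins such as TRIB3 that restrain the response again. The program includes genes for the supply of asparagine, serine, glycine and cystine. Whether these cultures depended on it was not tested.

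Above-background signal was found for 24808 to 25916 probes per array in the STMN1-/- channel and for 25122 to 26029 in the STMN1+/+ channel, and no spot was saturated. Array medians of the log2 ratio lay between -0.01 and 0.00. Log2 ratios over all tested probes correlated at 0.69 for arrays 1 and 2 and at 0.70 for arrays 3 and 4, and at 0.45 to 0.49 for pairs with the dyes exchanged. Of the 2 probes for Stmn1, the disrupted gene, one gave a mean log2 ratio of -2.16 ± 0.063 (standard error, n = 4) and the other -0.39 ± 0.070, lower in STMN1-/- MEFs on every array with both. The paper calls the array's Stmn1 probe flawed because it also matches another chromosome, without saying which of the 2 probes is meant. It reports no Stmn1 message or protein in STMN1-/- MEFs by qRT-PCR and western blot, so the remaining signal is not a measure of Stmn1 message. A gene is called here by limma at an adjusted p under 0.05 over all probes. Over all genes tested, 13.4% were called higher and 12.2% lower. Of the fibroblast marker genes 7 of 8 were called higher in STMN1-/- MEFs and 1 lower. Their summed signal was 3360000 to 4380000 per array in STMN1-/- RNA and 1870000 to 2240000 in STMN1+/+ RNA. Of 5 measured epithelial markers out of 6 listed, 5 were called lower, with summed signals of 46200 to 53200 and 60500 to 68000. Cdh1 was not well above background in STMN1-/- RNA on any array, and Epcam was not measured above background. Of 6 measured macrophage markers out of 7, 1 was called higher and 2 lower, at 127000 to 149000 and 153000 to 174000, and of 3 measured endothelial markers out of 6, 1 was called each way, at 30200 to 34500 and 16400 to 19900. Itgam among the macrophage markers and Pecam1, Cdh5 and Tie1 among the endothelial markers were not measured above background. The part of these markers in the results below was not tested, and in RNA from whole cultures fewer cells of a type and less RNA per cell cannot be told apart.

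Promoter sequences were available for 40 of the 49 genes from RefSeq (build GRCm38.p6), as windows from 250 bases before to 50 bases after each annotated transcription start. These windows were searched on both strands for the composite element TGATGNAA and its strict form TGATGCAA, every occurrence of which also counts as TGATGNAA. TGATGNAA was present in 3.97% of all 32851 windows and in the windows of 4.51% of all genes, against 16 of the 40 amino acid response genes and 5 of 129 genes of neighbouring pathways. TGATGCAA was present in 0.895% of all windows, in 1.03% of all genes, in 12 of the 40 and in 4 of the 129. The genes were listed as known ATF4 targets, so these shares are not independent of how the genes were chosen. The full endoplasmic reticulum stress element (ERSE), which binds ATF6, was searched in the same way and was present in 0.119% of all windows, in none of the windows of the 40 genes and in those of 9 of the 129 neighbouring genes. A missing match says only that these letters are not in this window. The element lay before the start in 13 of the 16 genes. For 11 of them, up to 2 in each role by mean log2 ratio plus Asns, and without Vldlr, which has another listed start upstream, the bases around it are shown 5′ to 3′ on the strand of the gene, to let the element and its surroundings be compared. Capitals mark the element, which appears as its reverse complement where it lies on the opposite strand.
Nupr1, chr7:126625553-126625600, minus strand: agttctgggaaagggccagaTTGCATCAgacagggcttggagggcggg
Atf3, chr1:191183416-191183463, minus strand: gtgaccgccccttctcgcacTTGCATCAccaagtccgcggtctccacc
Pck2, chr14:55540143-55540190, plus strand: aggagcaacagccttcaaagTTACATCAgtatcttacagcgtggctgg
Pycr1, chr11:120643824-120643871, minus strand: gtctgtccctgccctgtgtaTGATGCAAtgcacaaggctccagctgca
Asns, chr6:7693210-7693252, minus strand: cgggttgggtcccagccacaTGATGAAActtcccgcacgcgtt
Slc7a11, chr3:50443633-50443699, minus strand: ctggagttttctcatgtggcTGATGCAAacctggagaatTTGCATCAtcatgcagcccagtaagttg
Aars, chr8:111033710-111033757, plus strand: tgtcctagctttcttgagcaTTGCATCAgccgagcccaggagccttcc
Gars, chr6:55037951-55037998, plus strand: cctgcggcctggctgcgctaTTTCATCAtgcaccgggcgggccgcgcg
Chac1, chr2:119351029-119351076, plus strand: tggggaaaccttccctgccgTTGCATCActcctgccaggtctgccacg
Herpud1, chr8:94386297-94386344, plus strand: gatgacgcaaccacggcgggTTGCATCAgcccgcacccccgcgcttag
Fgf21, chr7:45615602-45615649, minus strand: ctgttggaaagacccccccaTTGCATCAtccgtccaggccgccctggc

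The strict element began 110 bases before the start in both Nupr1 and Atf3, and 112 bases before it in both Aars and Herpud1. In Slc7a11, 2 strict elements faced each other at 66 and 47 bases before the start. Vldlr carried the strict element 200 bases before 1 of its starts and Tars 15 bases before its start. In Trib3, Yars and Iars the only match lay after the start. The 16 genes with the element had a median log2 ratio of 0.71, from -0.05 in Atf3 to 1.86 in Trib3, and 14 of them were called higher. The 24 genes whose windows lacked it had a median of 0.28, from -0.40 in Cbs to 1.23 in Atf5, and 11 were called higher. Among the 9 genes without a window, Aldh1l2, Cth, Slc7a3, Slc7a5, Cars, Nars, Lars, Wars and Eif4ebp1, the median was 0.34 and 7 were called higher. Over all genes tested, 13.4% were called higher. The genes were chosen as ATF4 targets with these ratios in view. The medians and counts are therefore given with no test, and nothing is read from the differences between these groups.

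**Figure D1:**
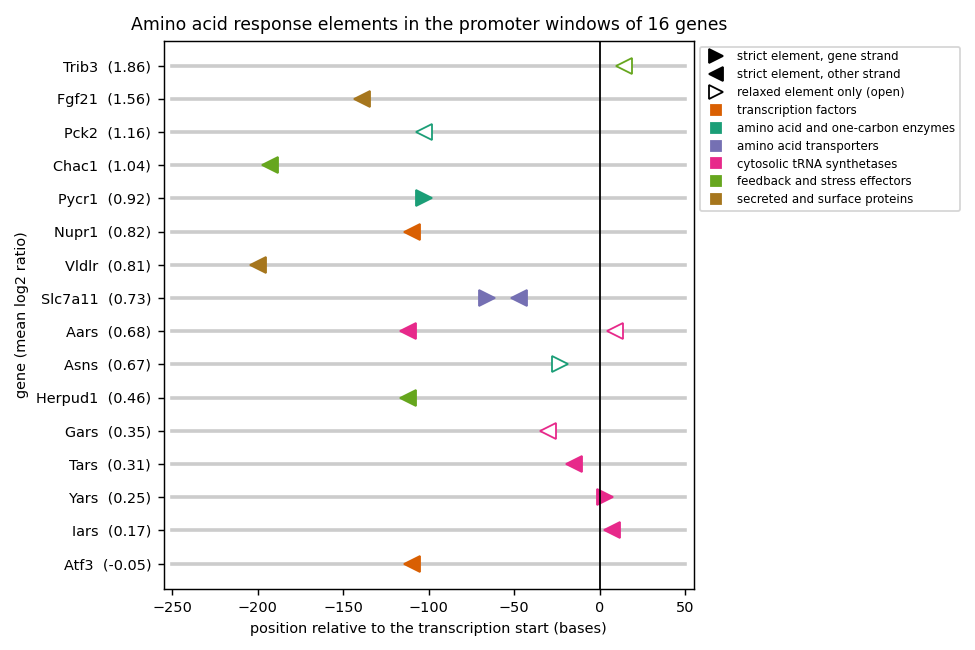
Positions of the composite C/EBP-ATF element TGATGNAA in the promoter windows of the 16 genes that hold it, in bases relative to the transcription start, ordered by mean log2 ratio of STMN1-/- over STMN1+/+ (in brackets). Filled triangles are the strict form TGATGCAA, open triangles other matches, and a triangle points right where the element reads on the strand of the gene. Most elements lie before the start, and Atf3 at the bottom holds the strict form with a mean log2 ratio of -0.05.

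Of the 49 genes, 32 were called higher in STMN1-/- MEFs by limma at an adjusted p under 0.05 over all probes, the call used throughout, and 0 were called lower. At an unadjusted p under 0.05, 38 were higher and 2 lower, and by the methods' t-test 28 were called higher and 0 lower. Over all genes tested, 13.4% were called higher and 12.2% lower. The log2 ratio was above 0 on 4 of 4 arrays for 36 of the 49 genes, against 24.4% of all genes, and below 0 on 4 of 4 arrays for 2, Cbs and Gdf15, against 23.8%. At least a 2-fold higher mean was found for 7 genes, Trib3, Fgf21, Aldh1l2, Atf5, Pck2, Slc7a3 and Chac1, against 1.81% of all genes. Because the genes were listed with this contrast known, nothing is read from these counts. The median log2 ratio over the 49 was 0.44, 0.45, 0.35 and 0.35 on arrays 1 to 4, and 0.36 over the means, where the median of all genes was 0.01. The number called higher was 22, 20, 22 and 21 when array 1, 2, 3 or 4 was left out, and 20 genes were called in each of these 4 fits.

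**Figure D2:**
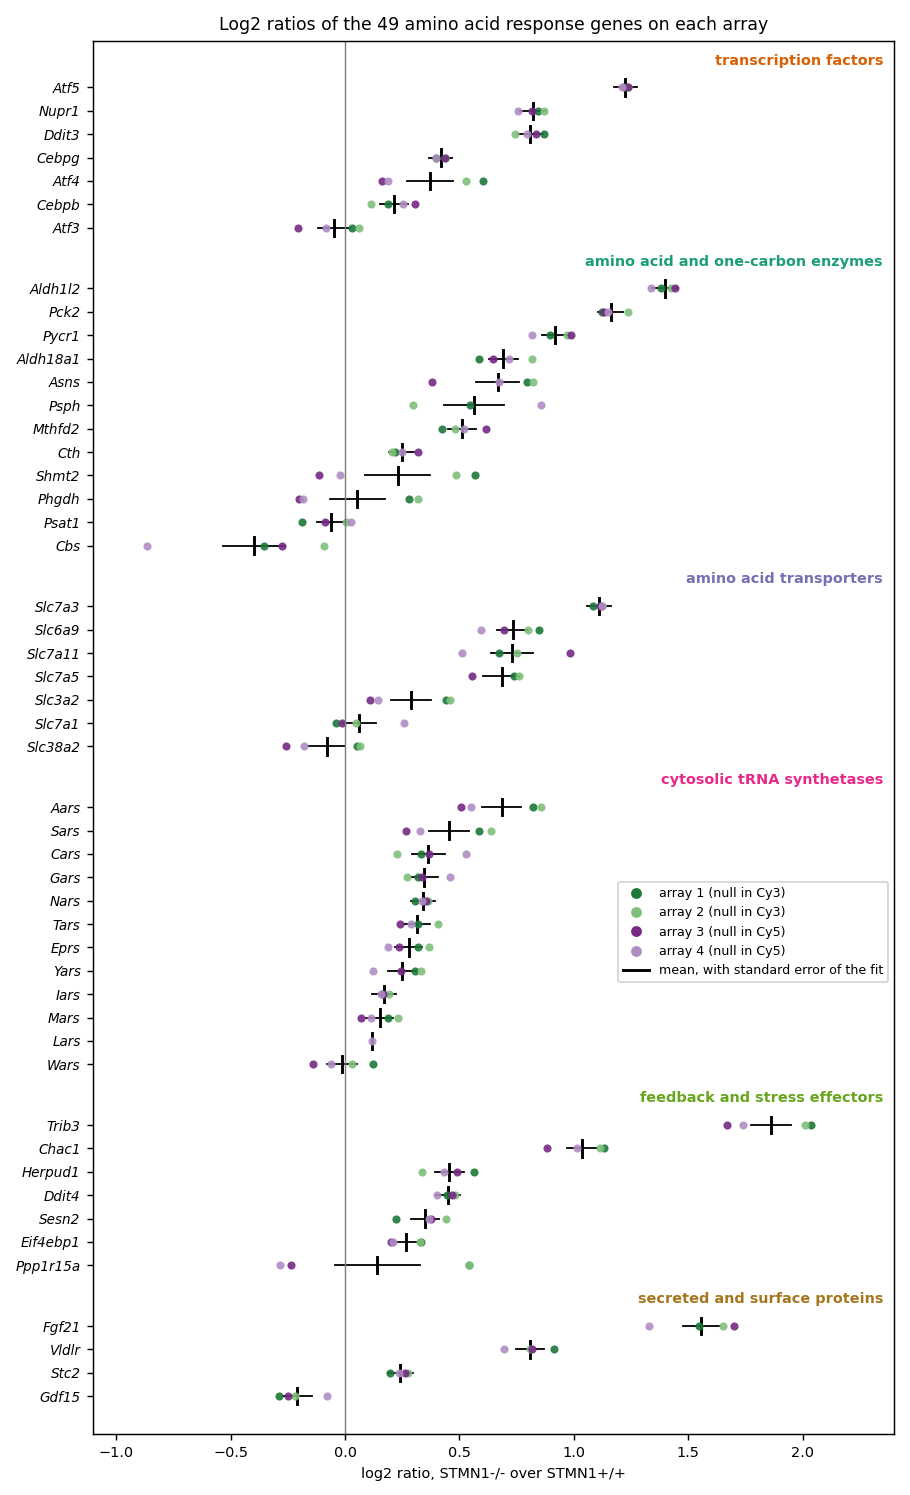
Log2 ratio of STMN1-/- over STMN1+/+ on each of the 4 arrays for the 49 genes, grouped by role, with the mean and its standard error from the fit (none for Lars, measured on 1 array), where null in the legend means STMN1-/- RNA. Trib3 lies farthest to the right with a mean of 1.86 and Cbs farthest to the left with -0.40, and the means of the cytosolic tRNA synthetases run from -0.01 in Wars to 0.68 in Aars.

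Among the 7 transcription factors, 4 were called higher, with a median log2 ratio of 0.42 over the role. Atf5, a close relative of ATF4 that is also controlled at translation, gave log2 ratios of 1.22, 1.24, 1.24 and 1.21 on arrays 1 to 4. All 4 values lay above 1, and the mean of 1.23 ± 0.052 is a 2.34-fold higher signal. Nupr1, a small chromatin protein induced by stress, gave 0.84, 0.87, 0.82 and 0.76, a mean of 0.82 ± 0.054 and a 1.77-fold higher signal. Ddit3 encodes CHOP, the factor that ATF4 induces in prolonged stress. It gave 0.87, 0.74, 0.83 and 0.79, a mean of 0.81 ± 0.055. Its probe (mm7 chr10:126796858-126797161) lies beside that of Mars (chr10:126798280-126798339), with a mean of 0.15 ± 0.058. Cebpg, a C/EBP protein that pairs with ATF4, gave 0.40, 0.44, 0.44 and 0.40, and its 3 probes had means from 0.37 to 0.66.

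Atf4 itself (probe at mm7 chr15:80341130-80341189) was not called. Its log2 ratios were 0.60 and 0.53 on arrays 1 and 2 but 0.16 and 0.19 on arrays 3 and 4. All were above 0, with a mean of 0.37 ± 0.10, a 1.29-fold higher signal, and the dye orientations differed by more than arrays of 1 orientation did. Atf4 was called higher in the fit with dye orientation as a second coefficient and when arrays of opposite orientation were averaged in pairs. It was also called higher when only probes above background on all arrays were kept, and with the median over the tested probes of each gene. In the other alternative fits it was not called. Cebpb, another C/EBP partner, had a mean of 0.21 ± 0.060, from 0.11 to 0.31 over the arrays, and was not called. Atf3, an ATF4 target and a repressor of the response, gave 0.03, 0.06, -0.21 and -0.08, values on both sides of 0 although its promoter holds the strict element shown above.

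Of the 12 enzymes of amino acid and one-carbon metabolism, 7 were called higher, and their values ranged from -0.40 to 1.40. Aldh1l2, which oxidises 10-formyl-tetrahydrofolate in mitochondria, gave 1.38, 1.42, 1.44 and 1.34 on arrays 1 to 4, a mean of 1.40 ± 0.054 or 2.63-fold higher, and its second probe gave 1.39. Pck2, the mitochondrial form of phosphoenolpyruvate carboxykinase, gave 1.12, 1.24, 1.13 and 1.15, a mean of 1.16 ± 0.055. Both lay above 1 on every array. Aldh18a1 and Pycr1 make proline from glutamate. Pycr1 gave 0.90, 0.97, 0.99 and 0.82, a mean of 0.92 ± 0.059, and Aldh18a1 gave 0.59, 0.82, 0.64 and 0.72, a mean of 0.69 ± 0.064. Asns, asparagine synthetase and the classical amino acid response gene, gave 0.79, 0.82, 0.38 and 0.67. Array 3 was the lowest, and the mean was 0.67 ± 0.093 or 1.59-fold higher.

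The enzymes that lead from glycolysis to serine and on to one-carbon units gave unlike values. Phgdh and Psat1, its entry enzymes, had means of 0.05 ± 0.12 and -0.06 ± 0.063 and were not called, while Psph, the last enzyme, gave 0.55, 0.30 and 0.85 on arrays 1, 2 and 4, with no usable spot on array 3. The mean of Psph was 0.57 ± 0.13, not called, and its second probe, at 0.63 ± 0.14, was called higher on its own. Mthfd2, the mitochondrial methylene-tetrahydrofolate dehydrogenase, gave 0.42, 0.48, 0.62 and 0.52 and was called, with a mean of 0.51 ± 0.060. Shmt2, which splits serine in mitochondria, gave 0.57, 0.49, -0.11 and -0.02 and was not called. Of the pair of transsulfuration enzymes, Cth, which releases cysteine, had a mean of 0.25 ± 0.055 and was called, but in none of the 4 fits without 1 array. Cbs, which acts before it, gave -0.36, -0.09, -0.28 and -0.86, a mean of -0.40 ± 0.14 that was not called. Cbs was dim, well above background in STMN1-/- RNA on 2 of the 4 arrays.

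Of the 7 amino acid transporters, 4 were called higher. Slc7a3, a cationic amino acid carrier that is scarce in many tissues, gave 1.08, 1.12, 1.11 and 1.12, a mean of 1.11 ± 0.052 or 2.16-fold higher. Its relative Slc7a1, the widespread carrier for arginine and lysine, had a mean of 0.06 ± 0.073, from -0.04 to 0.26. Slc6a9, the glycine carrier GLYT1, gave 0.85, 0.80, 0.69 and 0.59, a mean of 0.73 ± 0.067. Slc7a11, the cystine-glutamate exchanger, gave 0.67, 0.75, 0.98 and 0.51, a mean of 0.73 ± 0.091. Its signal was low, 254 in STMN1-/- against 153 in STMN1+/+ RNA, and STMN1+/+ RNA was well above background on 3 of the 4 arrays. Slc7a5, the large neutral amino acid carrier LAT1, gave 0.74, 0.76 and 0.56 on arrays 1 to 3 with no usable spot on array 4, a mean of 0.68 ± 0.080. Slc3a2, the heavy chain that carries Slc7a5 and Slc7a11 to the surface, gave 0.44, 0.46, 0.11 and 0.14, a mean of 0.29 ± 0.088 that was not called. Slc38a2, the neutral amino acid carrier SNAT2, is a well-known ATF4 target. Its brightest probe gave 0.05, 0.06, -0.26 and -0.18 and was not called. Its 4 probes had means from -0.46 to -0.07, all below 0, and the probe at -0.46 was called lower on its own. Slc7a5 lost its call without array 1 or array 2.

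Of the 12 cytosolic tRNA synthetases, which join each amino acid to its tRNA, 8 were called higher. Their median log2 ratio of 0.30 was the lowest of the 6 roles, and no gene reached 2-fold. On arrays 1 to 4 the median over the role was 0.32, 0.33, 0.24 and 0.24. Aars, which charges alanine, gave 0.82, 0.86, 0.51 and 0.55, a mean of 0.68 ± 0.086 or 1.61-fold higher. Of its 4 tested probes, 3 had means from 0.59 to 0.75, and the dimmest had -0.03 ± 0.17. Sars, for serine, gave 0.59, 0.64, 0.27 and 0.33, a mean of 0.45 ± 0.087. In both genes the 2 values with STMN1-/- RNA in Cy3 were the higher ones.

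Cars, for cysteine, gave 0.33, 0.23, 0.37 and 0.53, a mean of 0.36 ± 0.070, and Gars, for glycine, gave 0.32, 0.27, 0.34 and 0.46, a mean of 0.35 ± 0.060. In these genes array 4 was the highest. Nars, for asparagine, gave 0.31, 0.36, 0.35 and 0.34, a mean of 0.34 ± 0.052. Tars at 0.31 ± 0.058, Eprs at 0.28 ± 0.060 and Yars at 0.25 ± 0.063 were also called. Iars at 0.17 ± 0.052 and Mars at 0.15 ± 0.058 were above 0 on every array and were not called. Lars had a usable spot of its brightest probe on array 4 alone, at 0.12, and its other probes had means of 0.19 and 0.30, of which the one at 0.30 was called higher on its own. Wars, for tryptophan, was the exception in direction, with 0.12, 0.03, -0.14 and -0.06 for the brighter probe and a mean of 0.17 ± 0.17 for the other. Of the 8 calls, Aars alone was called whichever single array was left out. Sars was called without array 3 alone and Nars without array 1 alone, and Cars, Gars, Tars, Eprs and Yars in none of the 4 fits.

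The remaining synthetases were compared as neighbours, with no test of their difference from the 12 above. Over all genes tested, 13.4% were called higher and 12.2% lower. The counts of each neighbouring list stand beside these shares, and nothing is read from them. Of 11 other cytosolic synthetases and scaffold proteins of the multisynthetase complex, 3 were called lower and 0 higher, with 5 lower and 0 higher at an unadjusted p under 0.05 and 2 lower and 0 higher by the methods' t-test. Their median log2 ratio was -0.16. Eef1e1 and Aimp2, scaffold proteins of that complex, were at -0.50 ± 0.067 (3 arrays, adjusted p = 0.015) and -0.27 ± 0.061 (adjusted p = 0.0338), and Dars, the aspartate synthetase, was at -0.29 ± 0.061 (adjusted p = 0.0285). Of 17 mitochondrial synthetases, 2 were called lower, Mars2 at -0.47 ± 0.070 (adjusted p = 0.0116) and Yars2 at -0.40 ± 0.065 (adjusted p = 0.0148). None was called higher, also at an unadjusted p under 0.05 and by the methods' t-test (0 and 0), and the median was -0.04. Dars, Aimp2 and Yars2 were called in none of the fits without 1 array, Eef1e1 in 1 of 4 and Mars2 in 2 of 4.

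**Figure D3:**
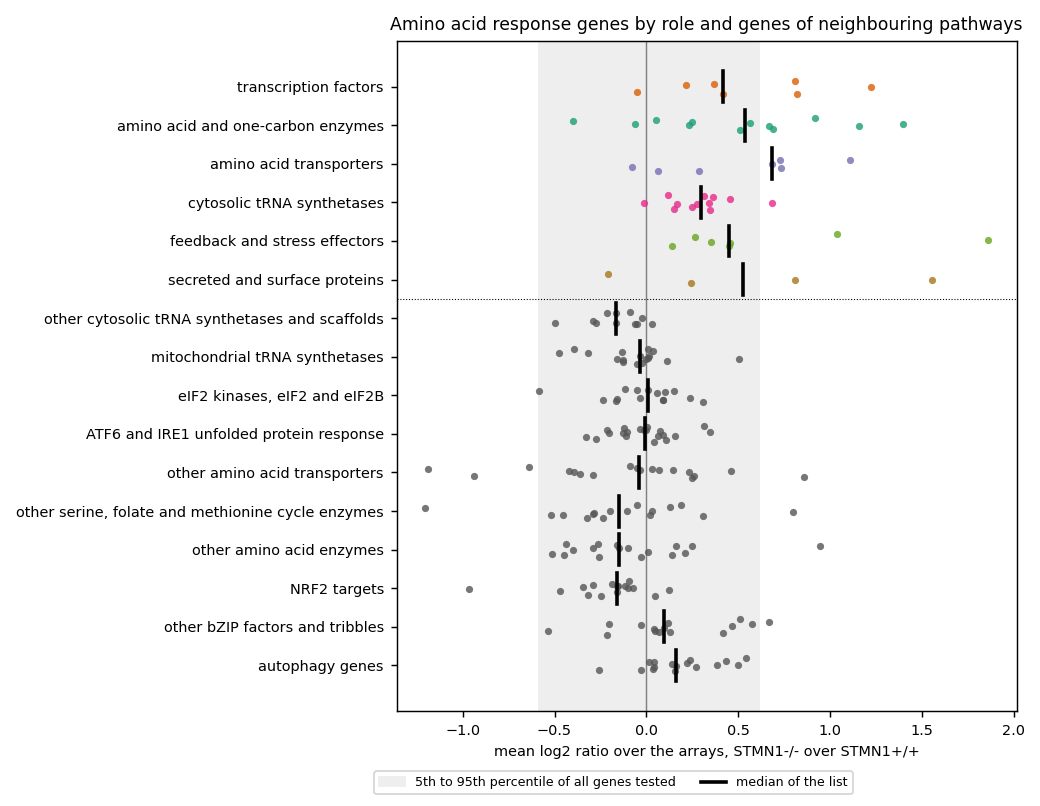
Mean log2 ratio of STMN1-/- over STMN1+/+ for each gene of the 6 roles of the amino acid response (coloured points) and of 10 lists from neighbouring pathways (grey points), with the list median as a black line and the 5th to 95th percentile of all 14997 genes shaded, from -0.58 to 0.61. The medians of the 6 roles lie between 0.30 and 0.68, and those of the 10 other lists between -0.16 and 0.16. The genes of the 6 roles were chosen with this contrast in view, so the gap between these medians is not independent of that choice.

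Of the 7 feedback and stress effectors, 6 were called higher. Trib3 (mm7 chr2:152078476-152078535), a pseudokinase that binds ATF4 and restrains it, had the largest mean log2 ratio of the 49 genes. It gave 2.03, 2.01, 1.67 and 1.74, a mean of 1.86 ± 0.088 or 3.64-fold higher, with signals of 24927 in STMN1-/- and 6855 in STMN1+/+ RNA. Its second probe gave 1.61 ± 0.13. Chac1, which cleaves glutathione, gave 1.13, 1.12, 0.88 and 1.01, a mean of 1.04 ± 0.067. Both were higher on every array, and both were larger on arrays 1 and 2. Herpud1, a protein of endoplasmic reticulum degradation, gave 0.56, 0.34, 0.49 and 0.43, a mean of 0.46 ± 0.063.

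Among the other effectors are regulators of the growth kinase mTORC1 and of translation. Ddit4, which inhibits mTORC1, gave 0.44, 0.48, 0.47 and 0.40, a mean of 0.45 ± 0.053. Sesn2, which reports low leucine to mTORC1, gave 0.22, 0.44, 0.37 and 0.36, a mean of 0.35 ± 0.062, and was called without array 1 but not without array 2, 3 or 4. Eif4ebp1, a repressor of cap-dependent translation, gave 0.33, 0.33, 0.20 and 0.21 for its brighter probe, a mean of 0.27 ± 0.058 that was called, while its dimmer probe had a mean of -0.04 ± 0.25. It was called in none of the 4 fits without 1 array, nor with the median over its probes. Ppp1r15a, the GADD34 subunit that removes the phosphate from eIF2, gave 0.54, 0.54, -0.23 and -0.28 and was not called.

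The 4 genes for secreted and surface proteins spread widely. Fgf21, a hormone made in stress and fasting, gave 1.55, 1.65, 1.70 and 1.33, a mean of 1.56 ± 0.081 or 2.94-fold higher, from signals of 561 and 191. Vldlr, a lipoprotein receptor, gave 0.91, 0.81, 0.82 and 0.69, a mean of 0.81 ± 0.062. Stc2, a secreted stanniocalcin, gave 0.19, 0.27, 0.26 and 0.24, a mean of 0.24 ± 0.053. These 3 were called higher, Stc2 in none of the fits without 1 array. Gdf15, a cytokine induced by CHOP and by p53, was below 0 on every array with -0.29, -0.22, -0.25 and -0.08, a mean of -0.21 ± 0.062 that was not called.

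Dye orientation moved with some of these values. Of the 46 genes with 4 values, 37 had a positive mean in both orientations, 3 a negative mean in both and 6 a different sign in each. The median over the 46 was 0.45 with STMN1-/- RNA in Cy3 and 0.36 with it in Cy5. The mean was larger with STMN1-/- RNA in Cy3 for 30 of the 46 genes, or 65.2%, and for 46.6% of all 14203 genes with 4 values. The gap was widest in Ppp1r15a, with 0.54 and -0.26, in Shmt2, with 0.53 and -0.07, and in Phgdh, with 0.30 and -0.19. These 3 were singled out after their values were seen. In Atf4 the means were 0.56 and 0.18. The effect of the dye cancels in a mean over 2 arrays of each orientation, but its spread enters the error of each mean. It does not fully cancel where an array is missing, as in Psph, Slc7a5 and Lars, or in the fits without 1 array.

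**Figure D4:**
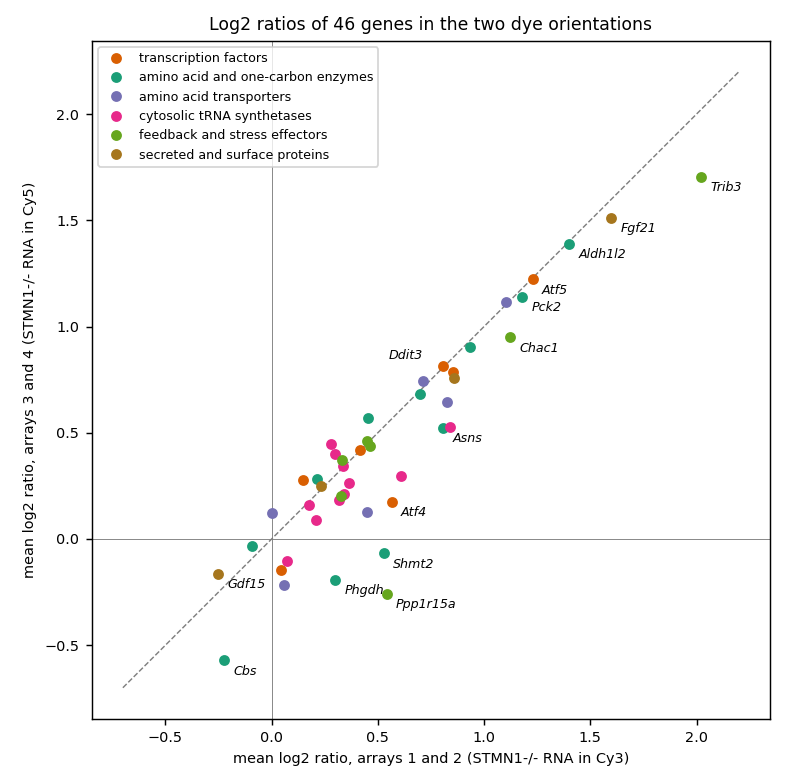
Mean log2 ratio of STMN1-/- over STMN1+/+ on arrays 1 and 2 (horizontal, STMN1-/- RNA in Cy3) against arrays 3 and 4 (vertical, STMN1-/- RNA in Cy5) for the 46 genes with 4 values, coloured by role, with the line of equal values dashed. Atf5, Ddit3 and Aldh1l2 lie close to the line, while Ppp1r15a, Shmt2, Phgdh and Atf4 lie well below it.

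Of the 49 genes, 21 had more than 1 tested probe, and in 18 of these all probes had the same sign. The exceptions were Aars, Wars and Eif4ebp1, each with 1 probe near 0 and a standard error that reached across 0.

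**Figure D5:**
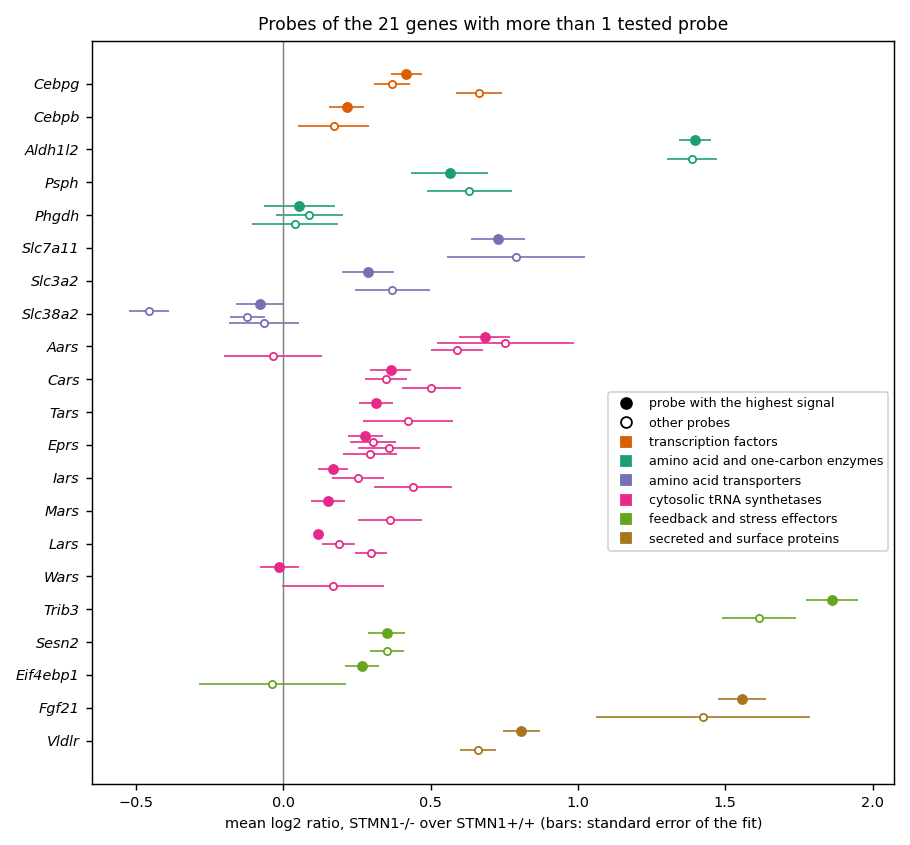
Mean log2 ratio of STMN1-/- over STMN1+/+ with its standard error from the fit for each probe of the 21 genes with more than 1 tested probe. Filled points are the probe with the highest signal, used for the gene, and open points the others. All probes of Trib3, Aldh1l2, Vldlr and Fgf21 lie at 0.66 or above, and the 4 probes of Slc38a2 all lie below 0.

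The kinases upstream of ATF4 and the factors they act on were measured as transcripts. Among 15 genes for the eIF2 kinases, eIF2 and its exchange factor eIF2B, 1 was called higher and 0 lower, with 2 lower at an unadjusted p under 0.05 and 0 called either way by the methods' t-test, and the median log2 ratio was 0.01. The gene called was Eif2ak3, which encodes PERK, with 0.21, 0.35, 0.25 and 0.43 and a mean of 0.31 ± 0.064 (adjusted p = 0.0282). It was called in none of the 4 fits without 1 array. Eif2ak4, which encodes GCN2, was at -0.12 ± 0.089 (adjusted p = 0.39), Eif2ak2 at 0.09 ± 0.074 (adjusted p = 0.431) and Eif2ak1 at -0.04 ± 0.068 (adjusted p = 0.736). The activity of these kinases was not measured.

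The ATF6 and IRE1 arms of the unfolded protein response, which share PERK's trigger, were represented by 20 genes with a median of -0.01. Of these, 2 were called higher, Sel1l at 0.35 ± 0.053 (adjusted p = 0.0123) and Xbp1 at 0.31 ± 0.066 (adjusted p = 0.0291), and 0 lower. At an unadjusted p under 0.05, 2 were higher and 2 lower, and the methods' t-test called 1 higher and 2 lower. Sel1l was called in 1 and Xbp1 in 0 of the 4 fits without 1 array. The stress element of ATF6 that was searched above was found in windows of this list alone among the 129 neighbouring genes, Hspa5, Hsp90b1, Calr, Canx, Creld2, Derl3, Dnajc3, Pdia6 and Syvn1, and none of these 9 was called.

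Other amino acid carriers and enzymes were called in both directions, with more called lower than higher in each list. Of 18 other transporters measured, 3 were called higher and 5 lower. At an unadjusted p under 0.05, 4 were higher and 6 lower, and the median log2 ratio was -0.04. Slc1a4, a carrier of alanine, serine and cysteine, was at 0.86 ± 0.082 (adjusted p = 0.00358), 1.81-fold higher. Its window holds the strict element, which begins 4 bases before the start and runs across it. Slc6a15, a neutral amino acid carrier, was at -1.19 ± 0.10 (adjusted p = 0.00281), the glutamate carrier Slc1a3 at -0.94 ± 0.096 (adjusted p = 0.00438) and Slc43a2 at -0.64 ± 0.083 (adjusted p = 0.00804). Of 16 other enzymes of the serine, folate and methionine cycles measured, 2 were called higher and 5 lower. At an unadjusted p under 0.05, 2 were higher and 8 lower, and the median was -0.15. Gldc, which breaks down glycine, was 2.31-fold lower at -1.21 ± 0.060 (adjusted p = 0.000819), the cytosolic formyl-tetrahydrofolate dehydrogenase Aldh1l1 was at 0.80 ± 0.068 (adjusted p = 0.00274) and Mthfd1 at -0.46 ± 0.083 (3 arrays, adjusted p = 0.0297).

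Of 17 other amino acid enzymes measured, 2 were called higher and 6 lower. At an unadjusted p under 0.05, 3 were higher and 8 lower, and the median was -0.15. Gpt2, the mitochondrial alanine transaminase, gave 0.99, 1.00, 0.92 and 0.89, a mean of 0.95 ± 0.055 (adjusted p = 0.00113) or 1.93-fold higher. The proline-degrading enzyme Prodh was at -0.51 ± 0.078 (adjusted p = 0.0123) and glutamine synthetase Glul at -0.44 ± 0.084 (adjusted p = 0.0229). Prodh takes the first step of proline breakdown, and Pycr1 and Aldh18a1, described above, act in its synthesis.

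NRF2, another stress factor that also acts on Slc7a11, was represented by 16 target genes with a median of -0.16. Of these 0 were called higher and 4 lower, with 0 higher and 8 lower at an unadjusted p under 0.05 and 0 higher and 2 lower by the methods' t-test. The genes called were Nqo1 at -0.97 ± 0.20 (adjusted p = 0.0268), Gclm at -0.47 ± 0.065 (adjusted p = 0.00958), Txnrd1 at -0.34 ± 0.082 (adjusted p = 0.0414) and Hmox1 at -0.29 ± 0.064 (adjusted p = 0.0334). For Nqo1, array 1 gave -1.71 and the other arrays -0.79, -0.63 and -0.74, and without array 1 the mean was -0.72.

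Of 15 other bZIP factors and tribbles proteins measured, 5 were called higher and 1 lower. Jdp2, a relative of ATF3, was at 0.57 ± 0.054 (adjusted p = 0.00343), with the strict element 33 bases before its start. Besides Jdp2 and Slc1a4, the neighbouring genes with the strict element were Slc7a7, at 0.23 and called higher, and Got1, at 0.01 and not called. In Got1 it began 102 bases before the start. Eif2s3x, which held TGATGNAA but not the strict form, was at -0.16 and not called. Creb3l1, a factor of secretory cells, was at 0.67 ± 0.094 (adjusted p = 0.0102). The tribbles genes differed in direction, Trib3 being higher as above, Trib2 at 0.51 ± 0.082 (3 arrays, adjusted p = 0.0224) and Trib1 at -0.54 ± 0.052 (adjusted p = 0.00363). Of 16 autophagy genes, several of them known ATF4 and CHOP targets, 5 were called higher and 0 lower, with 6 and 0 at an unadjusted p under 0.05 and 4 and 0 by the methods' t-test, and the median was 0.16. The cargo receptor Sqstm1 was at 0.54 ± 0.053 (adjusted p = 0.00395), Wipi1 at 0.50 ± 0.12 (adjusted p = 0.0406), Map1lc3b at 0.38 ± 0.059 (adjusted p = 0.013) and Gabarapl1 at 0.24 ± 0.058 (adjusted p = 0.043). Over the 161 measured genes of these 10 lists, 20 were called higher and 26 lower, where 13.4% and 12.2% of all genes were. Of these 46, 13 were called whichever single array was left out. These 13 were Slc6a15, Slc1a4, Slc1a3, Slc43a2, Gldc, Aldh1l1, Gpt2, Gclm, Jdp2, Trib1, Nfe2l1, Creb3l1 and Sqstm1, and each of the others lost its call without at least 1 array.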

How the data were processed

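The deposited intensity values were made by the authors with Agilent Feature Extraction 9.5.3.1 per the file headers. Its settings were spatial detrending, LOWESS dye normalization and surrogates in place of the dimmest values. The authors also deposited log2 ratios from GeneSpring for probes they selected, which served here as an alternative for single genes. Of 45018 spots per array, controls and spots marked as outliers were left out, spots of 1 probe were averaged, and a probe was kept where at least 1 array had either channel well above background. Of 41174 probes, 27724 were tested. Log2 ratios of processed signals, signed by the dye labels, were compared with 0 by the moderated test of limma 3.58.1 (R 4.3.3), two-sided, after a check on simulated data. P-values were adjusted by Benjamini-Hochberg across every probe tested, with a threshold of 0.05. The brightest tested probe stands for a gene. Probes took gene names from RefSeq by accession, then by symbol or synonym. Probe coordinates are those of mouse build mm7, and no genome sequence or annotation of that build was used, so the exon behind a probe and cross-matches to near-identical copies were not analysed here. All arrays shared 1 slide and 1 scan.

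The members and lists were chosen with earlier results of these data known. Values on every array are given for up to 5 members of each role with the largest mean log2 ratio, for Atf4, Ddit3, Asns and Trib3, for members whose probes differ in direction, and otherwise where a sentence says so or an array stands apart. Of each comparison list, up to 4 genes past the test with the largest log2 ratio and the eIF2 kinases are named. Some genes that this rule would name are not reported here. The precision is limited by the 4 arrays. Alternatives were other background corrections and normalizations, filters, dye terms, pairings of arrays, the methods' t-test, other probe rules and leaving out each array. Python 3.11.15 with matplotlib 3.10.9 drew the figures.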

Additional observations from a re-analysis of the deposited data

Results flagged for a closer look

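The median log2 ratio over the 4 genes for secreted and surface proteins was 0.55, 0.54, 0.54 and 0.47 on arrays 1 to 4. Array 4 was far from the other arrays for their spread, with a gap of 0.86 of the whole range, above Dixon's critical value for 4 values. The range itself is narrow, and chance marks about 1 in 20 such groups. Of the 46 single genes with 4 values that were looked at in the same way, 0 were marked.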

How the results depend on the processing

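The median log2 ratio of the 49 genes was 0.32 with normexp background correction at an offset of 50, 0.31 at an offset of 0 and 0.36 to 0.37 under the other alternatives that used all 4 arrays. The number called higher was 28 and 22 with the normexp offsets of 50 and 0, 24 without a filter on dim probes, 28 by the methods' t-test, 40 with dye orientation as a second coefficient and 32 to 35 under the rest of these. Both normexp settings lost the calls of Mthfd2, Cth, Slc7a11, Gars, Yars, Fgf21 and Stc2, and the offset of 0 also those of Cebpg, Nars, Eprs and Eif4ebp1. Without the filter Cth, Sars, Eprs, Tars, Yars, Cars, Eif4ebp1 and Stc2 lost theirs, and by the t-test Asns, Slc7a5, Sars, Yars and Cars. With the dye coefficient Atf4, Cebpb, Psph, Shmt2, Slc3a2, Iars, Mars and Ppp1r15a were also called higher. The number called lower was 1, Gdf15, with the dye coefficient and with the median over probes, and 1, Cbs, when array 1 was averaged with 3 and 2 with 4. In the 10 neighbouring lists 11 genes were called higher and 16 lower with an offset of 50, 8 and 9 with 0, 11 and 12 without the filter, and 31 and 46 with the dye coefficient, and 12 were called higher by the t-test. Over all genes these counts were 798 and 822, 606 and 571, 1283 and 1139, and 3249 and 3029, and 1202 were called lower by the t-test. Leaving out 1 array gave 20 to 22 of the 49 called higher and 0 lower, a median of 0.35 to 0.37, 8 to 10 higher and 6 to 11 lower in the neighbouring lists, and 976 to 1113 higher and 832 to 952 lower over all genes, from fewer arrays. The cause of the other changes was not tested. Of 822 ratios of single genes under 17 alternatives, 784 moved by less than 1 SD of the arrays, 38 by more, and 0 turned sign in a called gene. The authors' deposited log2 values gave ratios within 0.0864 for 38 genes. Counts and medians under them were not run, because those lists hold only probes the authors selected. No paired analysis was possible because each array's ratio already sets both genotypes against each other, so there is 1 group with no second group to pair with. Which dye-swapped arrays belong together is not given, so both ways of averaging them were run. Slide and scan are shared by all 4 arrays, so no block could be fitted. Signal limits Slc7a11, Cbs and Fgf21, which were close to background.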
